A study of Mus musculus with 10 samples.

Results

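A set of 10 genes that mark layers of the mouse cortex was followed across 10 libraries of ribosome-bound RNA. The members were taken by gene symbol from a count table of 55536 genes. Of the 10, 3 mark superficial cortex (Lamp5, Calb1 and Wfs1) and 7 mark layers 5, 6 or 6b (Deptor, Rprm, Garnl3, Syt6, Hs3st4, Cplx3 and Nxph4). All 10 passed the filter on low counts. The RNA came from translating ribosome affinity purification (TRAP), in which a GFP-tagged ribosomal protein, L10a, lets an antibody against GFP pull down the ribosomes of chosen cells. The tag was delivered to S1DZ, a zone of primary somatosensory cortex, by a virus (AAV5-EF1α-Flex-EGFPL10a) that all 3 groups received and whose construct is active only where Cre is present. The groups were Il-17ra-Cre mice (3 libraries), Il-17rb-Cre mice (3 libraries) and Il-17rc-Cre mice (4 libraries), in which Cre is driven from the gene of an interleukin-17 receptor subunit, and tissue was taken 4 weeks after the injection. The viral promoter, EF1α, is active in most cell types, so among the cells that the virus enters Cre is meant to set which carry the tag. Which cells the virus entered is not given by the labels. The labels give no age or sex, and they leave unsaid whether a library is 1 animal and whether 2 replicates come from different mice. The p-values therefore reflect only how far these libraries differ among themselves, which may be technical.

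The neocortex is built of layers whose excitatory neurons differ in their targets. Cells of the superficial layers project mainly within the cortex, layer 5 holds cells that project to the brainstem and spinal cord, most layer 6 cells of the corticothalamic class project to the thalamus, and layer 6b is a thin band above the white matter. A layer marker is a gene whose transcript is richer in the neurons of a layer than in their neighbours, and few are exclusive. Lamp5 and Calb1 are also made by inhibitory interneurons, Cplx3 by the Lamp5 class of interneurons, and Calb1 and Wfs1 by striatal neurons.

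Total counts per library ran from 39692925 to 165844244. Markers of cell types other than the layer genes differed between the libraries. The summed level of 10 excitatory neuron markers was 18625 to 21550.2 CPM (counts scaled to library size, with the trimmed mean of M values, TMM) in the Il-17rb-Cre libraries and 2421 to 4170.3 CPM in the Il-17rc-Cre libraries. It was 1693, 1975 and 7061 CPM in Il-17ra-Cre replicates 1 to 3, so that replicate 3 stood apart from the other two. In the same 3 libraries Rpl10a, whose product is the protein that was tagged, stood at 58.6, 70.9 and 679 CPM. Rpl10a was at 602 to 669 CPM in the Il-17rb-Cre libraries and 191 to 267 CPM in the Il-17rc-Cre libraries. The summed level of 10 astrocyte markers was 637 to 655 CPM in Il-17rb-Cre, 6929 to 13632 CPM in Il-17ra-Cre and 11275 to 17638 CPM in Il-17rc-Cre. The transcripts of Il17ra and Il17rb were not raised in the group of their own driver. Il17rc was at 20.3 to 39.9 CPM in Il-17rc-Cre and 21.3 to 41.2 CPM in Il-17ra-Cre, above the 1.03 to 3.19 CPM of Il-17rb-Cre, so it set Il-17rb-Cre apart but did not tell the other two groups from each other. Each direction given for a group therefore rests on its label. In pooled tissue, fewer cells of a type and less RNA per cell cannot be told apart.

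The 10 members did not move as a block. Lamp5, Calb1, Garnl3 and Hs3st4 were higher in Il-17rb-Cre than in either other group, and Wfs1 was lower. Against Il-17ra-Cre 4 of 10 members were called higher and 1 lower (edgeR quasi-likelihood test, Benjamini-Hochberg adjusted p below 0.05), where 16.4% of all 20301 tested genes were called higher and 24.4% lower. Against Il-17rc-Cre the counts were again 4 and 1, where 17.7% of genes were called higher and 21.9% lower. Called in either direction were 5 of 10 members, beside 40.7% and 39.7% of all genes in these comparisons. The libraries of the 2 groups did not overlap for 5 of 10 members against Il-17ra-Cre, beside 53.8% of genes, and for 8 of 10 against Il-17rc-Cre, beside 53% of genes. The median log2 fold change of the members was 1.48 against Il-17ra-Cre and 1.08 against Il-17rc-Cre, beside −0.09 and 0.02 for all tested genes. Both comparisons use the same Il-17rb-Cre libraries. Without Il-17ra-Cre replicate 3, 8 members were called higher and 1 lower against Il-17ra-Cre, and 6 higher and 1 lower against Il-17rc-Cre. The same fit called 4411 of all genes higher and 5505 lower against Il-17ra-Cre, and 4285 higher and 4866 lower against Il-17rc-Cre.

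**Figure D1:**
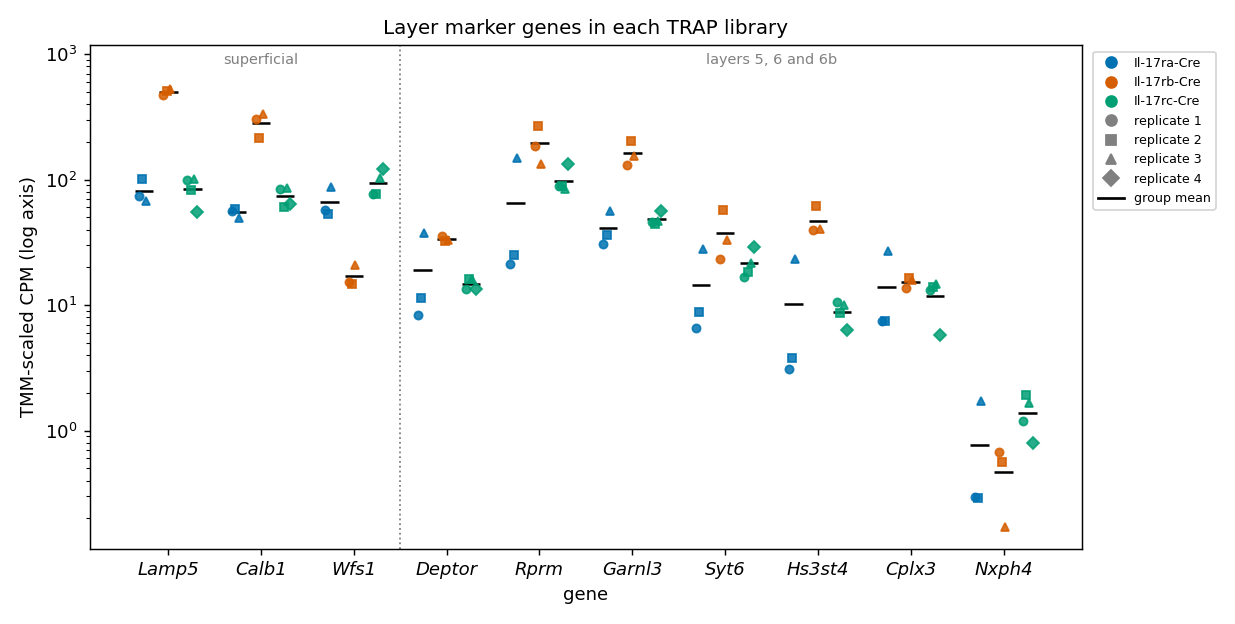
TMM-scaled CPM (log axis) of the 10 layer markers in each library, with colour for the group, symbol for the replicate number and a line at each group mean. Lamp5 and Calb1 in the 3 Il-17rb-Cre libraries sit above all 7 others, Wfs1 sits below them, and Il-17ra-Cre replicate 3 sits above replicates 1 and 2 for each of the deep layer genes.

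The stretch of DNA just before the start is shown for 5 members. Among them Lamp5 is a superficial gene that rose in Il-17rb-Cre, and Hs3st4 is a deep gene that did. Rprm and Syt6 are a pair that varied together across libraries. Cplx3 was called lower in Il-17rb-Cre per unit of excitatory marker RNA, as were 74.6% of all genes against Il-17ra-Cre and 70.3% against Il-17rc-Cre. Windows are shown only where they were of full length and overlapped no annotated exon. Each is the 150 bases before the RefSeq or GENCODE gene start, whichever lies further upstream, taken from RefSeq (GRCm38.p6), 5′ to 3′ on the gene's strand, at chr2:136052089-136052238 (plus strand) for Lamp5, chr2:54085553-54085702 (minus) for Rprm, chr3:103575081-103575230 (plus) for Syt6, chr7:123982678-123982827 (plus) for Hs3st4 and chr9:57606282-57606431 (minus) for Cplx3. Capitals mark matches to CAGNTG, a form of E-box, or GGGCGG, a GC box, on either strand. Of the 10 members, 7 had an entry, and Calb1, Deptor and Nxph4 are named only. Wfs1 and Garnl3 had an entry but no window that met this rule.
Lamp5: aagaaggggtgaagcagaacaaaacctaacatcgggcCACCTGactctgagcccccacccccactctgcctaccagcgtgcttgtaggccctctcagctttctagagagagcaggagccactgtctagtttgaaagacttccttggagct
Rprm: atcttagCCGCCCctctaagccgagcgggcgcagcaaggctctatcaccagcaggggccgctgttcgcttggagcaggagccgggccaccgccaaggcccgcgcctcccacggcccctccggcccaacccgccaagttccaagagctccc
Syt6: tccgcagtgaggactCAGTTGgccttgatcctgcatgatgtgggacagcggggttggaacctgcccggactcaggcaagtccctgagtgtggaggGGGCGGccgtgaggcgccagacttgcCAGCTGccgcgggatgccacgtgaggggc
Hs3st4: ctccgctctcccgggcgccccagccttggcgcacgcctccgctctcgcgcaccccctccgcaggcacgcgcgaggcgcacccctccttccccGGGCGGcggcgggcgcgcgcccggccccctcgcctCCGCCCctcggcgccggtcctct
Cplx3: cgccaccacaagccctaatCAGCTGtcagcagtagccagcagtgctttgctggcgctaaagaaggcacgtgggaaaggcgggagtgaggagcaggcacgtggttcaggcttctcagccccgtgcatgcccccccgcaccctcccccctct

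The E-box letters were found in the windows of Lamp5 (1 match), Syt6 (2 matches) and Cplx3 (1 match), and they occur in 30.1% of the 32851 RefSeq windows of 150 bases before a gene start. The GC box letters were found in those of Rprm (1 match), Syt6 (1 match) and Hs3st4 (2 matches), beside 28.6% of windows, and no match of one motif overlapped the other. TATAAA and TGACG, searched on both strands, were in none of the 5, beside 7.57% and 13.3% of windows. The GC content was 54.7% for Lamp5, 70.7% for Rprm, 66.7% for Syt6, 83.3% for Hs3st4 and 64.0% for Cplx3, beside a median of 54.0% over all windows. Of the motifs searched the windows of Rprm and Syt6 share the GC box. A match is a run of letters and not a shown binding site.

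Lamp5, a brain-enriched relative of the lysosomal membrane proteins that marks layer 2/3 neurons, lies on GRCm38 chr2:136052239-136069917 (ENSMUSG00000027270). It was at 73.4, 102 and 67.9 CPM in Il-17ra-Cre replicates 1 to 3, 473, 505 and 524 CPM in Il-17rb-Cre replicates 1 to 3 and 99.7, 81.9, 100.5 and 54.8 CPM in Il-17rc-Cre replicates 1 to 4. The Il-17rb-Cre libraries lay above all others, and the other two groups overlapped. The level was 6.18-fold that of Il-17ra-Cre (log2 fold change 2.63 ± 0.25 (SE), edgeR adjusted p = 5.26e-05) and 5.94-fold that of Il-17rc-Cre (2.57 ± 0.23 (SE), edgeR adjusted p = 2.45e-05). Calb1 (ENSMUSG00000028222, chr4:15881264-15908064), which encodes the calcium buffer calbindin, followed the same order. It was at 55.8, 58.6 and 49.9 CPM in Il-17ra-Cre, 303, 213 and 333 CPM in Il-17rb-Cre and 84.7, 60.7, 86.1 and 64.1 CPM in Il-17rc-Cre. The Il-17rb-Cre libraries again lay above all others, by 2.37 ± 0.22 (SE) on the log2 scale against Il-17ra-Cre (edgeR adjusted p = 3.9e-05) and by 1.94 ± 0.19 against Il-17rc-Cre (edgeR adjusted p = 4.96e-05). These 4 calls held without any of the 10 libraries.

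Since Lamp5 and Calb1 also mark interneurons, the levels of interneuron lists stand beside them. The 8 listed markers of the Lamp5 class of interneurons, such as Ndnf and Reln, summed to 491 to 608 CPM in Il-17ra-Cre, 542 to 721 CPM in Il-17rb-Cre and 576 to 1126 CPM in Il-17rc-Cre, and 0 of 8 were called in the comparisons of Il-17rb-Cre with either group by edgeR (0 at an unadjusted p below 0.05, 0 with DESeq2 and 2 in each with limma voom). The 11 general inhibitory markers summed to 378 to 586, 1420.0 to 1454 and 954 to 1331 CPM, with 6 higher and 2 lower against Il-17ra-Cre and 3 higher and 2 lower against Il-17rc-Cre. Over all genes 16.4% were called higher and 24.4% lower against Il-17ra-Cre, and 17.7% and 21.9% against Il-17rc-Cre. The part of interneurons in the levels of Lamp5 and Calb1 was not tested.

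Wfs1 (ENSMUSG00000039474, chr5:36966104-36989205), which encodes wolframin, a membrane protein of the endoplasmic reticulum, went the other way from its superficial partners. It was at 15.3, 14.6 and 20.8 CPM in the Il-17rb-Cre libraries, 57.8, 53.1 and 87.6 CPM in Il-17ra-Cre and 77.1, 76.9, 102 and 122 CPM in Il-17rc-Cre. All 3 Il-17rb-Cre libraries lay below all 7 others. The level was 3.91-fold higher in Il-17ra-Cre than in Il-17rb-Cre (log2 fold change of Il-17rb-Cre -1.97 ± 0.26 (SE), edgeR adjusted p = 3.45e-04) and 5.59-fold higher in Il-17rc-Cre (-2.48 ± 0.26 (SE), edgeR adjusted p = 6.77e-05). Astrocyte marker sums, given above, were also lowest in Il-17rb-Cre, and all 10 astrocyte markers were called lower in both comparisons. Of all genes, 24.4% were called lower against Il-17ra-Cre and 21.9% against Il-17rc-Cre. The summed level of 10 striatal projection neuron markers was 86.8 to 515 CPM in Il-17ra-Cre, 525.8 to 582 CPM in Il-17rb-Cre and 175 to 1940.1 CPM in Il-17rc-Cre. The part of either cell type in the Wfs1 level was not tested.

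Of the deep layer genes, Garnl3 and Hs3st4 were called higher in Il-17rb-Cre in both comparisons. Garnl3 (ENSMUSG00000038860, chr2:32986224-33131654) encodes a protein with a GTPase-activating domain of the Rap/Ran type. It was at 30.6, 36.0 and 55.9 CPM in Il-17ra-Cre, 132, 204 and 154 CPM in Il-17rb-Cre and 45.9, 44.1, 47.1 and 56.3 CPM in Il-17rc-Cre, and the Il-17rb-Cre libraries lay above all others. The log2 fold change was 2.00 ± 0.25 (SE), edgeR adjusted p = 2.28e-04 against Il-17ra-Cre and 1.76 ± 0.23 (SE), edgeR adjusted p = 2.40e-04 against Il-17rc-Cre, and both calls held without any of the 10 libraries. Hs3st4 (ENSMUSG00000078591, chr7:123982869-124398989) encodes a sulfotransferase that adds sulfate to heparan sulfate chains. It was at 3.13, 3.82 and 23.5 CPM in Il-17ra-Cre, 39.4, 61.8 and 40.1 CPM in Il-17rb-Cre and 10.6, 8.67, 9.94 and 6.31 CPM in Il-17rc-Cre. Its Il-17rb-Cre libraries also lay above all others, with Il-17ra-Cre replicate 3 the nearest. The log2 fold change was 2.20 ± 0.67 (SE), edgeR adjusted p = 0.0241 against Il-17ra-Cre and 2.41 ± 0.61 (SE), edgeR adjusted p = 0.0107 against Il-17rc-Cre. The call against Il-17ra-Cre was lost without Il-17ra-Cre replicate 1 (1.79, edgeR adjusted p = 0.0576), without Il-17ra-Cre replicate 2 (1.82, 0.0701) or without Il-17rb-Cre replicate 2 (1.97, 0.0694), and the fold change was 3.76 without Il-17ra-Cre replicate 3. An antisense gene, Gm27040, overlaps 4.08% of the Hs3st4 exons, and reads there cannot be assigned to either without strand.

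Deptor, Rprm and Syt6 did not pass the main edgeR test (TMM scaling, all libraries in the model) in either comparison. With other scalings edgeR called Syt6 higher than in Il-17ra-Cre (RLE, adjusted p = 0.0491, and upper quartile, 0.0484). It also called Deptor higher than in Il-17rc-Cre (upper quartile, adjusted p = 0.0403). Over all 21 alternatives, Syt6 passed in 9 against Il-17ra-Cre and Deptor in 8 against Il-17rc-Cre. DESeq2 called Rprm (adjusted p = 0.0186) and Syt6 (adjusted p = 0.0151) higher than in Il-17ra-Cre and Deptor (adjusted p = 0.0258) higher than in Il-17rc-Cre, and limma voom called all 3 higher in both comparisons. Deptor (ENSMUSG00000022419, chr15:55112317-55259271), which encodes an inhibitor of the mTOR kinase and marks layer 5, was at 8.27, 11.4 and 37.8 CPM in Il-17ra-Cre, 35.3, 32.3 and 32.9 CPM in Il-17rb-Cre and 13.5, 16.2, 16.2 and 13.4 CPM in Il-17rc-Cre. Il-17ra-Cre replicate 3 was above all other libraries, and the Il-17rb-Cre libraries lay above the Il-17rc-Cre libraries without overlap. The log2 fold change was 0.80 ± 0.46 (SE), edgeR adjusted p = 0.192 against Il-17ra-Cre and 1.17 ± 0.43 (SE), edgeR adjusted p = 0.0501 against Il-17rc-Cre. Rprm (ENSMUSG00000075334, chr2:54084093-54085552), a gene of 1 exon whose product is known for arresting the cell cycle and which marks layer 6, was at 21.2, 25.2 and 148 CPM in Il-17ra-Cre, 184, 267 and 133 CPM in Il-17rb-Cre and 88.3, 89.3, 83.4 and 132 CPM in Il-17rc-Cre. Its Il-17rb-Cre libraries overlapped Il-17ra-Cre replicate 3 and lay just above Il-17rc-Cre replicate 4, and the log2 fold changes were 1.58 ± 0.65 (SE), edgeR adjusted p = 0.0775 and 0.99 ± 0.59 (SE), edgeR adjusted p = 0.212. Syt6 (ENSMUSG00000027849, chr3:103575231-103645569), a synaptotagmin of layer 6 corticothalamic cells, was at 6.52, 8.83 and 27.8 CPM in Il-17ra-Cre, 23.5, 57.2 and 32.9 CPM in Il-17rb-Cre and 16.8, 18.2, 21.7 and 29.3 CPM in Il-17rc-Cre. Its groups overlapped in both comparisons, and the log2 fold changes were 1.39 ± 0.53 (SE), edgeR adjusted p = 0.0583 and 0.82 ± 0.48 (SE), edgeR adjusted p = 0.203.

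These 3 genes were called higher in Il-17rb-Cre than in Il-17ra-Cre once Il-17ra-Cre replicate 3 was left out. The log2 fold change was then 1.77 for Deptor (edgeR adjusted p = 1.12e-04), 3.07 for Rprm (9.34e-05) and 2.30 for Syt6 (0.00154). Against Il-17rc-Cre, the same omission left the fold changes of Deptor and Rprm at 1.18 and 0.99 and brought their adjusted p to 2.89e-04 and 0.00968. Deptor also passed against Il-17rc-Cre without Il-17ra-Cre replicate 1 (1.12, edgeR adjusted p = 0.0252), and Syt6 against Il-17ra-Cre without Il-17rb-Cre replicate 1 (1.65, 0.0486). Exons of Deptor and Syt6 overlap the opposite-strand genes Gm9920 (3.41% of exonic bases) and Atg4a-ps (8.67%).

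The 2 layer 6b markers gave no call on the CPM scale by edgeR with all libraries in the model. By limma voom Cplx3 was called higher than in Il-17ra-Cre (log2 fold change 0.91, adjusted p = 0.0394) and Nxph4 lower than in Il-17rc-Cre (-2.09, adjusted p = 0.00553), and edgeR fitted to only these 2 groups also called Nxph4 lower than in Il-17rc-Cre (-1.69, adjusted p = 0.0435). Cplx3 (ENSMUSG00000039714, chr9:57599992-57606281), a complexin that binds the SNARE fusion machinery, was at 7.41, 7.43 and 26.8 CPM in Il-17ra-Cre, 13.7, 16.4 and 16.0 CPM in Il-17rb-Cre and 13.2, 14.0, 14.8 and 5.78 CPM in Il-17rc-Cre. Its Il-17rb-Cre libraries lay above Il-17ra-Cre replicates 1 and 2 and below replicate 3. The log2 fold change was 0.14 ± 0.51 (SE), edgeR adjusted p = 0.85 against Il-17ra-Cre and 0.36 ± 0.47 (SE), edgeR adjusted p = 0.573 against Il-17rc-Cre. Without Il-17ra-Cre replicate 3 the first was 1.05 (edgeR adjusted p = 0.0412). Nxph4 (ENSMUSG00000040258, chr10:127525473-127534559), of the neurexophilin family of neurexin ligands, was the least abundant member, with 11 to 295 raw counts per library. It was at 0.296, 0.292 and 1.73 CPM in Il-17ra-Cre, 0.676, 0.560 and 0.171 CPM in Il-17rb-Cre and 1.19, 1.92, 1.67 and 0.793 CPM in Il-17rc-Cre. The Il-17rb-Cre libraries lay below all 4 Il-17rc-Cre libraries, with a log2 fold change of -1.57 ± 0.77 (SE), edgeR adjusted p = 0.132, and overlapped Il-17ra-Cre (-0.75 ± 0.79 (SE), edgeR adjusted p = 0.487). Without Il-17ra-Cre replicate 3 the latter was 0.67, with the opposite sign.

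**Figure D2:**
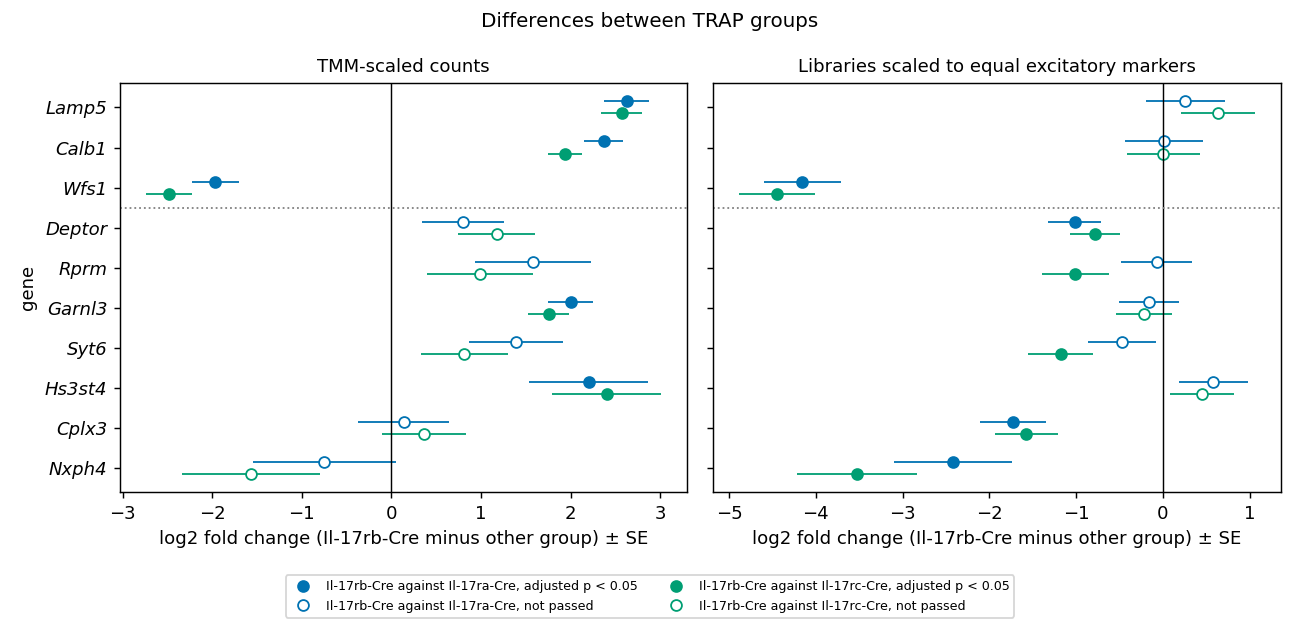
Log2 fold changes of the 10 layer markers with their standard errors for Il-17rb-Cre against Il-17ra-Cre and against Il-17rc-Cre, on the TMM scale and relative to excitatory markers. Filled points passed the edgeR test at an adjusted p below 0.05. On the TMM scale Lamp5 (2.63 and 2.57) and Calb1 (2.37 and 1.94) lie on the higher side in both Il-17rb-Cre comparisons and Wfs1 (−1.97 and −2.48) on the lower side.

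Between Il-17ra-Cre and Il-17rc-Cre, 0 of 10 members were called by edgeR, where 2.18% of all genes were (1.38% higher, 0.798% lower). At an unadjusted p below 0.05 the number was also 0, DESeq2 called 0 and limma voom called 2. The log2 fold changes ran from -0.82 for Nxph4 to 0.37 for Deptor. The intervals of 2 SE were wide for the deep genes, -1.80 to 0.61 for Rprm and -1.55 to 0.41 for Syt6, and narrower for Lamp5 (-0.50 to 0.39). Without Il-17ra-Cre replicate 3, Rprm (-2.08, edgeR adjusted p = 0.00465), Hs3st4 (-1.36, 0.0177) and Syt6 (-1.48, 0.0354) were called lower in Il-17ra-Cre than in Il-17rc-Cre, and for Hs3st4 this turned the direction. Calls rose over all genes as well: the same fit called 1541 genes higher and 1345 lower, beside 443 in either direction with all libraries. The 2 groups did not overlap for 1 of 10 members, Calb1, beside 14.6% of genes.

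Il-17ra-Cre replicate 3 differed from replicates 1 and 2 more for most deep layer genes than for the superficial ones, with deep Garnl3 close to superficial Wfs1. Its level over the mean of replicates 1 and 2 was 0.775 for Lamp5, 0.872 for Calb1 and 1.58 for Wfs1. For the 7 deep genes the same ratio ran from 1.68 for Garnl3 to 6.76 for Hs3st4, with 6.39 for Rprm, 5.87 for Nxph4, 3.85 for Deptor, 3.62 for Syt6 and 3.61 for Cplx3. Lists that share no gene with the members were summed in the same libraries. The summed level of 10 layer 2/3 genes was 234, 239 and 234 CPM in replicates 1 to 3, that of 8 layer 6 corticothalamic genes was 124, 159 and 322 CPM and that of 5 layer 6b genes was 24.4, 46.4 and 110.5 CPM. Not all deep lists followed: the 9 layer 5 extratelencephalic genes were at 242, 253 and 223 CPM and the 5 layer 5 intratelencephalic genes at 528, 431 and 209 CPM. Excitatory markers and Rpl10a were higher in replicate 3 as well, as given above, and the summed oligodendrocyte markers were 43715, 30025 and 5205 CPM in the same order. These are descriptions of 3 libraries with no test, and the part of cell content in them was not tested.

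**Figure D3:**
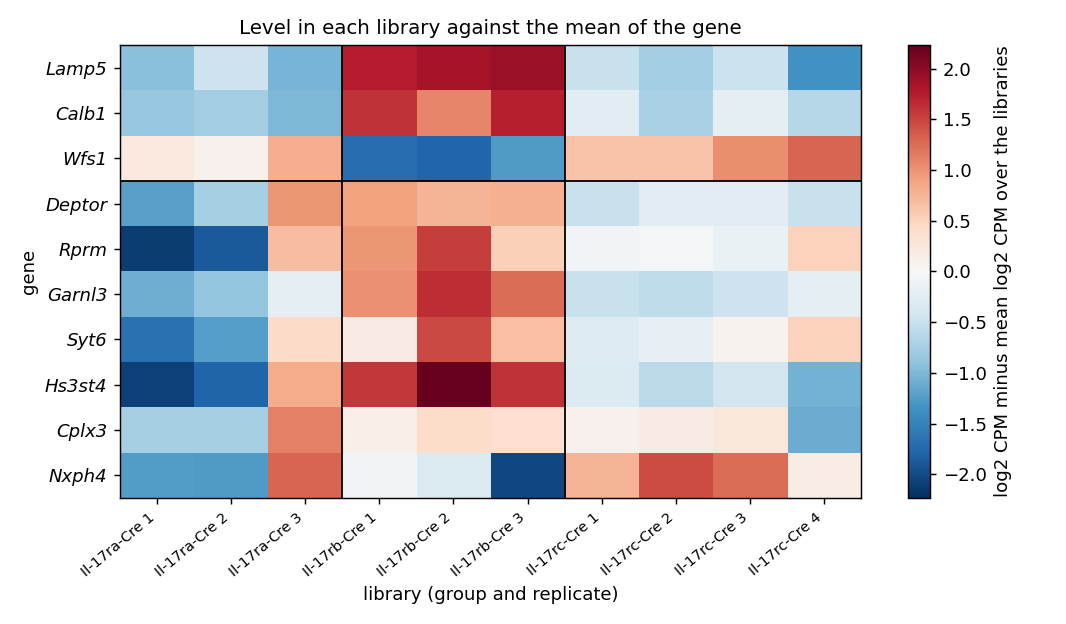
Log2 CPM of each layer marker in each library, as the difference from that gene's mean over the 10 libraries. Il-17ra-Cre replicate 3 is nearer to the Il-17rb-Cre libraries for Deptor, Rprm, Syt6 and Hs3st4 and nearer to the Il-17ra-Cre replicates 1 and 2 for Lamp5, Calb1, Wfs1 and Garnl3.

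Since the libraries differed in excitatory RNA, each gene was also expressed per unit of excitatory marker RNA, by setting the mean log2 level of the 10 excitatory markers equal in all libraries. This offset lowered the Il-17rb-Cre fold changes of all tested genes by a median of 2.29 on the log2 scale against Il-17ra-Cre and 1.96 against Il-17rc-Cre, and directions on this scale are read against that shift. On it, 0 of 10 members were called higher in Il-17rb-Cre and 4 lower than in Il-17ra-Cre, where 0.286% of all genes were called higher and 74.6% lower. Against Il-17rc-Cre 0 were called higher and 6 lower, where 0.163% of genes were called higher and 70.3% lower. In either direction these are 4 and 6 of 10 members beside 74.8% and 70.5% of genes, so the members were called no more often than the background. Groups did not overlap on this scale for 4 of 10 members against Il-17ra-Cre, beside 74.2% of genes, and for 8 of 10 against Il-17rc-Cre, beside 76.1%. Between Il-17ra-Cre and Il-17rc-Cre edgeR called 0 of 10 members (1 at an unadjusted p below 0.05, Rprm, 0 with DESeq2, 2 with limma voom) and 0% of genes, and the groups did not overlap for 1 of 10 members, Syt6, beside 5.14% of genes.

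Wfs1, Cplx3 and Nxph4 were the members called lower against both groups on the excitatory scale under each alternative run and without any of the 10 libraries. The median log2 fold change of all tested genes on this scale was -2.39 against Il-17ra-Cre and -1.94 against Il-17rc-Cre. Wfs1 lay below that median in both comparisons, and Cplx3 was less lowered than it in both. Nxph4 was near it against Il-17ra-Cre and below it against Il-17rc-Cre. Wfs1 was at 5.84, 5.15 and 8.0 CPM at equal excitatory marker level in Il-17rb-Cre, 160.0, 111 and 67.5 in Il-17ra-Cre and 105, 118, 135 and 194 in Il-17rc-Cre, with log2 fold changes of -4.15 ± 0.44 (SE), edgeR adjusted p = 5.55e-05 and -4.45 ± 0.44 (SE), edgeR adjusted p = 3.22e-05. Cplx3 was at 5.23, 5.76 and 6.13 on this scale in Il-17rb-Cre, 20.5, 15.5 and 20.7 in Il-17ra-Cre and 17.9, 21.4, 19.5 and 9.19 in Il-17rc-Cre. The 3 Il-17rb-Cre libraries lay below all 7 others, with log2 fold changes of -1.73 (edgeR adjusted p = 0.0019) and -1.57 (0.00332). Nxph4 was at 0.257, 0.197 and 0.0658 in Il-17rb-Cre, 0.821, 0.609 and 1.33 in Il-17ra-Cre and 1.63, 2.94, 2.20 and 1.26 in Il-17rc-Cre, again without overlap, with log2 fold changes of -2.42 ± 0.68 (SE), edgeR adjusted p = 0.00722 and -3.53 ± 0.69 (SE), edgeR adjusted p = 0.00138.

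Lamp5, Calb1, Garnl3 and Hs3st4 were not called on the excitatory scale by edgeR with all libraries in the model. By limma voom on this scale Lamp5 was called higher than in Il-17rc-Cre (log2 fold change 0.57, adjusted p = 0.00177) and Hs3st4 higher than in Il-17ra-Cre (1.07, adjusted p = 0.0041), and edgeR fitted to only Il-17rb-Cre and Il-17rc-Cre called Lamp5 higher (0.63, adjusted p = 0.00739). Lamp5 was at 180.0, 178 and 201 in Il-17rb-Cre, 203, 212 and 52.3 in Il-17ra-Cre and 136, 125, 133 and 87.2 in Il-17rc-Cre. The Il-17rb-Cre libraries lay above Il-17ra-Cre replicate 3, below replicates 1 and 2, and above all 4 Il-17rc-Cre libraries. The log2 fold change of Lamp5 was 0.26 (interval of 2 SE, -0.66 to 1.17) and 0.63 (-0.21 to 1.48), and the latter passed without Il-17ra-Cre replicate 3 (edgeR adjusted p = 0.0076). Calb1 gave 0.02 (-0.88 to 0.92) and 0.00 (-0.84 to 0.84), Garnl3 gave -0.16 (-0.84 to 0.52) and -0.22 (-0.86 to 0.42), and Hs3st4 gave 0.58 (-0.21 to 1.38) and 0.45 (-0.29 to 1.19). Without Il-17ra-Cre replicate 3, Hs3st4 was called higher than in Il-17ra-Cre on this scale (1.06, edgeR adjusted p = 0.00508). With 10 pan-neuronal genes in place of the excitatory list, Lamp5 was called higher in both comparisons (1.05 and 1.11, edgeR adjusted p = 0.0114 and 0.00574) and Calb1 against Il-17ra-Cre (0.78, 0.0411).

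The remaining calls on the excitatory scale depended on single libraries. Deptor was lower in Il-17rb-Cre than in Il-17ra-Cre (-1.02 ± 0.30 (SE), edgeR adjusted p = 0.0096) and than in Il-17rc-Cre (-0.78 ± 0.28 (SE), edgeR adjusted p = 0.0284), the reverse of its sign on the CPM scale. Rprm (-1.01 ± 0.39 (SE), edgeR adjusted p = 0.0369) and Syt6 (-1.18 ± 0.38 (SE), edgeR adjusted p = 0.0163) were lower than in Il-17rc-Cre only, and whether this differed from the comparison with Il-17ra-Cre was not tested. These fold changes of the 3 genes were all less negative than the median of all tested genes in the same comparison on this scale. Without Il-17rb-Cre replicate 1, Il-17rb-Cre replicate 3 or Il-17rc-Cre replicate 4, none of these 3 genes passed against Il-17rc-Cre, with edgeR adjusted p from 0.0522 to 0.148. Deptor was also lost against Il-17rc-Cre without Il-17rb-Cre replicate 2 (0.114), Il-17rc-Cre replicate 2 (0.077) or Il-17rc-Cre replicate 3 (0.059), and against Il-17ra-Cre without Il-17rb-Cre replicate 2 (0.0505). Rprm was also lost without Il-17rc-Cre replicate 2 (0.0589). With the pan-neuronal genes, none of the 3 passed in either comparison.

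**Figure D4:**
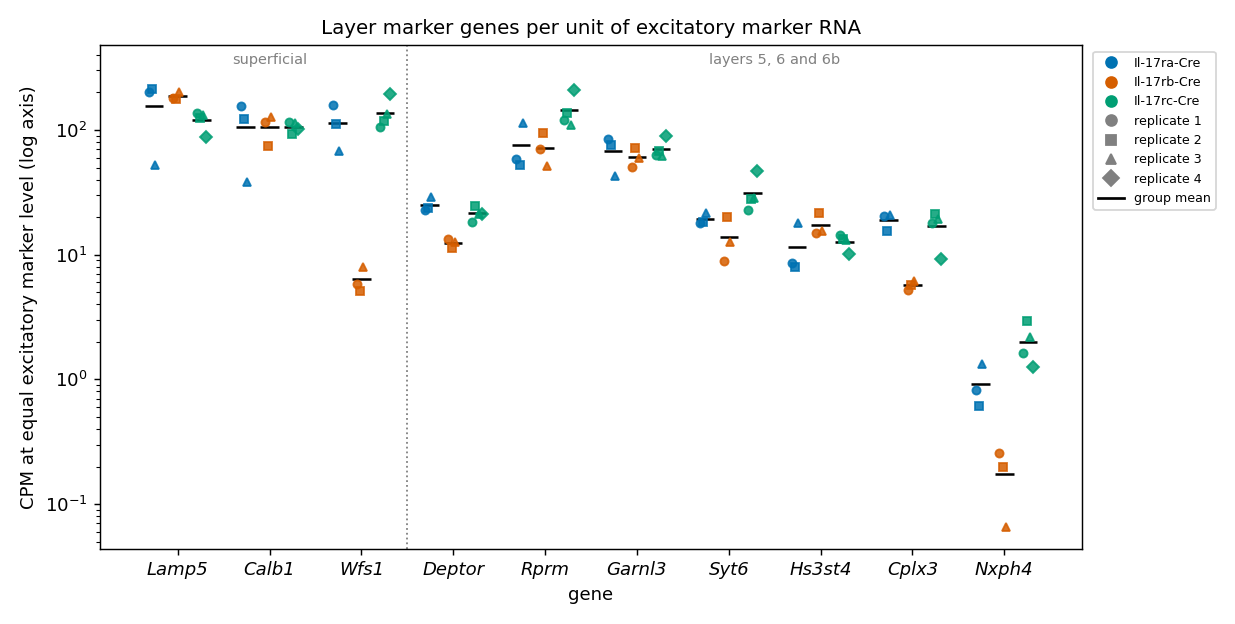
CPM of the 10 layer markers with the excitatory marker level set equal in all libraries (log axis), with colour for the group, symbol for the replicate number and a line at each group mean. Wfs1, Cplx3 and Nxph4 in Il-17rb-Cre lie below all 7 other libraries, while Lamp5, Calb1 and Garnl3 overlap with those of Il-17ra-Cre.

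Other markers of each layer, from lists that share no gene with the members, were counted on the CPM scale with the same test. Over all tested genes, 16.4% were called higher and 24.4% lower against Il-17ra-Cre. Against Il-17rc-Cre the shares were 17.7% higher and 21.9% lower. The counts of every list here and in the next paragraph are read beside these shares. Of 10 layer 2/3 genes, 4 were higher and 1 lower in Il-17rb-Cre than in Il-17ra-Cre, and 3 were higher and 2 lower than in Il-17rc-Cre (median log2 fold changes 0.91 and 0.24). Cux1, a transcription factor of upper layer neurons, was at 124 ± 8.35 CPM (SD, n = 3) in Il-17rb-Cre, 53.4 ± 16.4 in Il-17ra-Cre and 52.3 ± 6.08 in Il-17rc-Cre (n = 4), with a log2 fold change of 1.21 ± 0.22, adjusted p = 0.00174 by edgeR against Il-17ra-Cre. Lhx2, of the same list, went the other way against Il-17rc-Cre. It was called lower there (log2 fold change -0.88), and 4 of 21 alternatives lost this call. Of 5 layer 4 genes, 3 and 2 were higher and 0 lower (medians 1.83 and 0.72). Of 5 layer 5 intratelencephalic genes, 0 were higher and 2 lower in both comparisons (medians −0.05 and −0.76). Sulf2, an extracellular sulfatase that acts on heparan sulfate, was at 54.0 ± 8.59 CPM in Il-17rb-Cre and 249.7 ± 129.7 in Il-17ra-Cre (-2.21 ± 0.37, adjusted p = 0.00123 by edgeR). Of 9 layer 5 extratelencephalic genes, 3 were higher in each comparison, with 0 lower against Il-17ra-Cre and 1 lower against Il-17rc-Cre (medians 1.37 and 1.15). Fezf2, the transcription factor that specifies subcerebral projection neurons, was among those higher in both (1.73 ± 0.34, adjusted p = 0.00272 against Il-17ra-Cre, 1.48 ± 0.31, adjusted p = 0.00378 against Il-17rc-Cre, both by edgeR).

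Of 8 layer 6 corticothalamic genes, 3 were higher and 1 lower in each comparison (medians 0.82 and 0.84). Tbr1, a transcription factor of layer 6 identity, was at 155 ± 14.7 CPM in Il-17rb-Cre, 44.4 ± 39.5 in Il-17ra-Cre and 40.8 ± 5.26 in Il-17rc-Cre (1.80 ± 0.49, adjusted p = 0.0144 and 1.93 ± 0.45, adjusted p = 0.00679, edgeR). Of 4 layer 6 intratelencephalic genes and of 4 tested near-projecting genes, 0 were called by edgeR in either comparison, nor at an unadjusted p below 0.05 or with DESeq2. Their median log2 fold changes against Il-17ra-Cre and Il-17rc-Cre were 1.13 and 1.22 for the intratelencephalic genes and -0.71 and 0.33 for the near-projecting genes. With limma voom 2 of the former were called against Il-17ra-Cre and 1 of the latter against Il-17rc-Cre. Of 5 layer 6b genes, 1 was higher and 2 lower against Il-17ra-Cre, and 2 were higher and 0 lower against Il-17rc-Cre (medians 1.24 and 2.06). The 2 higher genes were Prss12, a neuronal serine protease (2.06 ± 0.51, adjusted p = 0.00962, edgeR), and Nr4a2, a nuclear receptor (2.42 ± 0.44, adjusted p = 0.00184, edgeR). Of the 10 excitatory markers, 9 were higher in both comparisons. Among them Slc17a7, which loads glutamate into synaptic vesicles, was at 1892 ± 420.0 CPM in Il-17rb-Cre, 342 ± 246 in Il-17ra-Cre and 393 ± 45.1 in Il-17rc-Cre.

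Levels between genes were compared per kilobase of exon. In Il-17rb-Cre the order ran from Lamp5 (171 ± 8.88 CPM per kilobase, SD, n = 3) through Rprm (133 ± 46.5), Calb1 (58.5 ± 12.9), Hs3st4 (14.8 ± 3.99), Garnl3 (13.2 ± 3.01), Syt6 (6.49 ± 2.98), Cplx3 (5.20 ± 0.480), Wfs1 (4.47 ± 0.897) and Deptor (3.77 ± 0.179) to Nxph4 (0.280 ± 0.158). Lamp5 overlapped Rprm, Hs3st4 overlapped Garnl3, Syt6, Cplx3 and Wfs1 overlapped one another between libraries, and Wfs1 overlapped Deptor, whereas Rprm did not overlap Calb1. In the other groups Rprm came first, at 67.3 ± 15.5 CPM per kilobase in Il-17rc-Cre (n = 4) and 44.5 ± 49.5 in Il-17ra-Cre (n = 3), followed by Lamp5 (28.7 ± 7.30 and 27.6 ± 6.20), Wfs1 (25.0 ± 5.79 and 17.5 ± 4.95) and Calb1 (15.2 ± 2.76 and 11.3 ± 0.919). Rprm overlapped Lamp5 in Il-17ra-Cre but not in Il-17rc-Cre. In Il-17ra-Cre replicates 1 to 3 Rprm was at 14.5, 17.3 and 101.6 CPM per kilobase and Lamp5 at 25.0, 34.7 and 23.1. Only replicate 3 thus had Rprm above Lamp5 in that group. Wfs1 stood at rank 3 of 10 in these groups and at rank 8 in Il-17rb-Cre. Nxph4 was last in all 3.

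Over the 10 libraries, which share 3 groups and so are not independent, the log2 levels of the members followed 2 main patterns. Lamp5 and Calb1 rose together (Pearson r = 0.97) and Wfs1 opposed Lamp5 (r = −0.95). Rprm went with Syt6 (r = 0.95) and Deptor with Hs3st4 (r = 0.94), while Lamp5 with Rprm gave 0.52. Garnl3 lay near both patterns, at 0.90 with Lamp5 and 0.93 with Hs3st4. Nxph4, with the fewest counts, had its largest correlation in size with Wfs1 (r = 0.54). These are descriptions of how the libraries line up, with no test.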

How the data were processed

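The authors deposited raw counts per gene, and per the submitters' processing notes the reads were aligned with STAR 2.7.5c to GRCm38. Trimming, the annotation, the strand setting and the counting of reads on genes are not given in the sources used. Symbols, coordinates and exon lengths come from GENCODE M21. Reads carry no molecular identifiers, so low counts vary more than their size implies.

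Genes were kept by edgeR's filter by group, which left 20301 of 55536 genes, and tested with the quasi-likelihood F test of edgeR 4.0.16 (R 4.3.3, TMM scaling, all 10 libraries in 1 model, Benjamini-Hochberg over all tested genes at 0.05). The test was checked on simulated counts. The biological coefficient of variation was 0.489. The same test was repeated with an offset that equalises 10 excitatory markers.

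The members and all lists were chosen with earlier results of these data known. Named were all members and, from each list, genes among the 3 with the highest mean CPM. Likeness between genes is Pearson's r of log2 CPM, computed with a prior count of 2 added to the counts.

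Alternatives were DESeq2 1.42.0, limma voom (3.58.1), 2 other scalings, 2 other filters, a pan-neuronal offset, replicate numbers as blocks, a fit to only the groups compared, each library left out, and Il-17ra-Cre replicates 1 and 2 or Il-17rc-Cre replicates 1 and 3 left out together. No pair of libraries of the same group agreed within sampling noise, and pairs across groups were not checked.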

Additional observations from a re-analysis of the deposited data

Results flagged for a closer look

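Rprm, the layer 6 marker, was at 132 CPM in Il-17rc-Cre replicate 4, while the other 3 Il-17rc-Cre libraries were at 83.4 to 89.3 CPM. The gap to the nearest of the others took 0.88 of the group's whole range, which is past the 95% limit of Dixon's test for 4 samples. The members were checked in this group on both scales, 20 such checks in all, and about 1 in 20 is past the limit by chance.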

How the results depend on the processing

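Of 1030 values of the members recomputed under the alternatives, 901 kept their direction and their side of the threshold, 46 passed where they had not, 35 no longer passed and 48 changed sign. None of the 48 was called as reported, and 1 was called under the alternative, the Hs3st4 value between Il-17ra-Cre and Il-17rc-Cre without Il-17ra-Cre replicate 3. On the CPM scale the calls of Lamp5, Calb1, Wfs1 and Garnl3 held under each alternative, and those of Hs3st4 were also lost against Il-17ra-Cre in a model of only these groups (edgeR adjusted p = 0.0595) and without Il-17ra-Cre replicates 1 and 2 together (0.11), and against Il-17rc-Cre without Il-17rc-Cre replicates 1 and 3 together (0.0543). The cause of these changes was not tested. With 3 or 4 libraries a group and few counts, differences of Nxph4 were the least precise.

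The number of members called moved from 5 to 9 with limma voom in both Il-17rb-Cre comparisons, to 8 against Il-17rc-Cre in a model of only these groups, and from 0 to 2 with limma voom between Il-17ra-Cre and Il-17rc-Cre. Over all genes, limma voom called 11416 against Il-17ra-Cre and 10895 against Il-17rc-Cre, in place of 8268 and 8057, and the model of only Il-17rb-Cre and Il-17rc-Cre called 9020. The number of genes called against Il-17ra-Cre fell from 8268 to 4192 without Il-17ra-Cre replicates 1 and 2 together. Between Il-17ra-Cre and Il-17rc-Cre it moved from 443 to 2055 with DESeq2, 4579 with limma voom, 692 with the filter at 1 CPM in 3 libraries and 1 in a model of only these groups, and to 0 (edgeR) without Il-17ra-Cre replicates 1 and 2 or Il-17rc-Cre replicates 1 and 3 together, where 3730 genes had an unadjusted p below 0.05 with all libraries. With single libraries left out, the numbers of members called were 4 to 9, 5 to 7 and 0 to 3 in the comparisons Il-17rb-Cre against Il-17ra-Cre, Il-17rb-Cre against Il-17rc-Cre and Il-17ra-Cre against Il-17rc-Cre, and those of genes were 6541 to 9916, 5946 to 9151 and 0 to 2886.

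Relative to excitatory markers, the numbers without single libraries were 3 to 5, 3 to 7 and 0 to 2 members and 13482 to 16476, 11388 to 15782 and 0 to 6957 genes. Without Il-17ra-Cre replicates 1 and 2 together 9165 genes in place of 15194 were called against Il-17ra-Cre. Between Il-17ra-Cre and Il-17rc-Cre on this scale, edgeR called 0 genes (2643 at an unadjusted p below 0.05), against 5 with the pan-neuronal offset, 792 with DESeq2, 8930 with limma voom and 4967 without Il-17ra-Cre replicates 1 and 2 together, where 2 members were called, as with limma voom.

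Over 9 pairs of same-numbered libraries the deviations from the group means correlated at −0.083 to 0.181. Of these, 2 pairs (title numbers) or 1 pair (numbers of the library names) were over 0.1. Libraries with different numbers were not correlated for comparison, so these values cannot show whether the replicate numbers pair the libraries. With the replicate block, 2 genes (title numbers) or 1 (library names) were called between Il-17ra-Cre and Il-17rc-Cre, and 1 with either on the excitatory scale. With the title numbers as the replicate block, 3 in place of 6 members were called lower than in Il-17rc-Cre relative to excitatory markers. Signs that changed under the replicate block were those of Hs3st4 (−0.36 by title, −0.16 by library name), Cplx3 (−0.22 by title) and Lamp5 (0.0484 by library name) between Il-17ra-Cre and Il-17rc-Cre, and, relative to excitatory markers, Calb1 against Il-17rc-Cre (−0.0116 by title) and Rprm against Il-17ra-Cre (0.0256 by library name).

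The other changes of sign were these. Between Il-17ra-Cre and Il-17rc-Cre limma voom gave 0.0114 for Lamp5, −0.32 for Deptor, −1.13 for Hs3st4 and −0.59 for Cplx3. Without Il-17ra-Cre replicates 1 and 2 together the values there were 0.52 for Rprm, 0.14 for Garnl3, 0.30 for Syt6 and 0.23 for Nxph4, those of Il-17rb-Cre against Il-17ra-Cre were −0.16 for Deptor and −0.79 for Cplx3, and relative to excitatory markers 0.49 for Garnl3 and −0.0571 for Hs3st4. Without Il-17rc-Cre replicates 1 and 3 together Lamp5 was at 0.24. Relative to excitatory markers, the pan-neuronal offset gave 0.31 for Rprm, 0.52 for Garnl3 and 0.038 for Syt6 against Il-17ra-Cre and 0.28 for Garnl3 against Il-17rc-Cre. On that scale limma voom gave −0.14 for Lamp5, −0.25 for Calb1 and 0.31 for Rprm against Il-17ra-Cre and −0.08 for Calb1 against Il-17rc-Cre. With single libraries left out the signs varied in Cplx3 (−0.16 to 1.05) and Nxph4 (−1.13 to 0.67) against Il-17ra-Cre, and in Lamp5 (−0.30 to 0.0566), Deptor (−0.59 to 0.66), Hs3st4 (−1.36 to 0.55) and Cplx3 (−0.69 to 0.46) between Il-17ra-Cre and Il-17rc-Cre. Relative to excitatory markers they varied in Lamp5 (−0.16 to 0.55), Calb1 (−0.38 to 0.40), Rprm (−0.32 to 0.36) and Garnl3 (−0.40 to 0.0341) against Il-17ra-Cre and in Calb1 (−0.15 to 0.20) against Il-17rc-Cre.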

Other observations

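For each member, the genes that followed it most closely over the 10 libraries were drawn from 9647 named genes with a mean log2 CPM of at least 3, by Pearson's r of the log2 level. The libraries share 3 groups, so a high r can come from the group means alone, and no test is given. Lamp5 was followed by Ttll1, a tubulin glutamylase, Rundc3a and Map2k1, the kinase MEK (r = 0.99 for each). Map2k1 was at a mean of 350.1, 563 and 347 CPM in Il-17ra-Cre, Il-17rb-Cre and Il-17rc-Cre, a smaller difference than that of Lamp5. Calb1 was followed by Rfc5 (r = 0.99) and by Cpne9, a copine (r = 0.97), whose means were 22.4, 248 and 45.9 CPM in the same order.

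Wfs1 was followed by Stard5, a lipid transfer protein, Cd151, a tetraspanin, and Ppcs, an enzyme of coenzyme A synthesis (r = 0.99 for each). Cd151 was at a mean of 15.6, 2.82 and 21.4 CPM. Hs3st4 was followed by genes of synapses, Dlg4, the postsynaptic scaffold PSD-95, and Syt5, a synaptotagmin (r = 0.99 for each). Syt5 was at 78.5, 324 and 84.4 CPM. Garnl3 was followed by Zbtb17, Trim32 and Dnajb5 (r = 0.99 for each), Deptor by Chga, the granule protein chromogranin A (r = 0.97), Rprm by Insig2 (r = 0.98) and Syt6 by Rab11fip5 (r = 0.98). The closest genes to Cplx3 and Nxph4, Mex3d and Hivep3, reached r = 0.93.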
